A study of Mus musculus with 3 samples.

Results

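The genes described here belong to antigen presentation by MHC class I and class II molecules in mouse mammary tumours. They were chosen by symbol from the platform's probe annotation: B2m, Tap1, Tap2, H2-K1 and H2-D1 for class I, and H2-Aa, H2-Ab1, H2-Eb1, Cd74 and Ciita for class II. Of these 10 genes, 9 had a probe, out of 15056 named genes, and H2-Eb1 was not analysed here. B2m was measured by 75 probes and each of the other 8 genes by 1 probe. Late carcinomas, taken as 18 week outgrowths, were compared with adenomas, taken as 5 week outgrowths. Per the labels, both stages grew from single hyperplasias of pubertal MMTV-PyMT x B-actin-GFP donors that were transplanted into syngeneic hosts, so transgene and donor type were shared by both stages. The MMTV promoter drives the polyoma middle T antigen mainly in mammary epithelium, and the immune cells of an outgrowth can come from the host. Each of 3 arrays carried late carcinoma total RNA in Cy3 and adenoma total RNA in Cy5. No dyes were swapped, so stage and dye cannot be told apart in any ratio or call. No label states if separate animals or pools lie behind the arrays, so a p-value here speaks only of array-to-array spread, which could be technical.

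Class I molecules are built from a polymorphic heavy chain (H2-K1, H2-D1) and the light chain beta-2 microglobulin (B2m). They show peptides from inside the cell, which the transporter formed by Tap1 and Tap2 carries into the endoplasmic reticulum, to cytotoxic T cells. Class II molecules, made of an alpha chain (H2-Aa) and a beta chain (H2-Ab1), are guided by the invariant chain Cd74 and show peptides taken up from outside to helper T cells. Class I is made by nearly all cells, whereas class II is made mainly by dendritic cells, B cells and macrophages under the control of the transactivator Ciita, and interferon gamma raises both classes.

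All values below are log2 ratios of adenoma over late carcinoma, the direction in which the deposited values were read. A value below 0 is thus likely higher in late carcinomas and a value above 0 likely higher in adenomas. The dyes in the labels and the usual convention (Cy5 over Cy3) give this direction, but the numerator and the base of the logarithm are not stated, and the other reading would turn all directions. The ratios hold no level, so the presence of a transcript in either stage could not be read. Array medians ran from -0.033 to -0.012, and precision is limited by having 3 arrays.

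B2m and Tap1 passed on the late carcinoma side, H2-Aa passed on the adenoma side, and the other 6 measured genes did not pass. The test was limma's moderated test of the mean against 0, two-sided, with a Benjamini-Hochberg adjusted p under 0.05 over 31058 genes and unnamed probes. The 3 calls, 1 above 0 and 2 below 0, compare with 25.2% of named genes called, 16.0% above 0 and 9.19% below 0, and with 25.1% of all genes and probes. The members' share of 33.3% is thus near the background, and the median of their means was -0.093, against -0.027 over all named genes. The class I genes had a median of -0.22 over 5 genes and the class II genes 0.083 over 4 genes. Whether the classes differ was not tested.

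**Figure D1:**
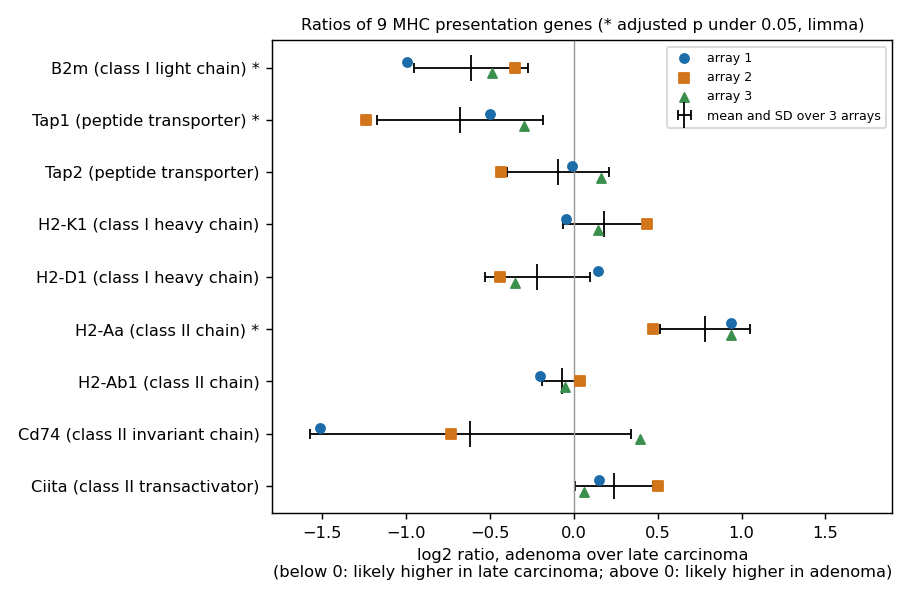
Each row is 1 gene, and the horizontal axis is the log2 ratio of adenoma over late carcinoma. Symbols are the 3 arrays and the bar is their mean and SD. B2m and Tap1 lie below 0 and H2-Aa above 0 on every array, while Cd74 runs from -1.51 to 0.395.

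B2m, the class I light chain and a gene often taken as a reference in expression studies, had gene means of -0.998, -0.353 and -0.491 on arrays 1, 2 and 3. All 3 values lay on the late carcinoma side, with array 1 the farthest from 0. The mean log2 ratio was -0.61 ± 0.34 (SD, n = 3), a 1.53-fold ratio, with a limma adjusted p of 0.0278. In bulk tumour RNA, fewer cells of a type and less RNA per cell cannot be told apart.

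The 75 B2m probes did not report 1 common ratio. On array 1 they ran from -2.49 through a median of -1.05 to 0.838, with an SD between probes of 0.70. On array 2 they ran from -1.05 through -0.408 to 0.781, with an SD of 0.32. On array 3 they ran from -1.31 through -0.573 to 0.772, with an SD of 0.43. The lean to the late carcinoma side was nonetheless shared by most probes. Values lay below 0 for 70 of 75 probes on array 1, 66 on array 2 and 66 on array 3, and 60 probes were below 0 on 3 arrays. Array 1 gave the lowest value of the 3 for 65 probes and array 2 the highest for 52, so the difference between arrays in the gene mean was carried by most of the probes.

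Averaged over arrays, 11 B2m probes had a mean of at most -1, 35 lay between -1 and -0.5, 22 between -0.5 and 0, and 7 above 0. The lowest probe had -1.88, -0.953 and -1.17 on the 3 arrays and the highest 0.838, 0.259 and 0.772. Those extremes among rows annotated to B2m thus pointed to opposite stages on every array. With each row fitted as its own probe, 46 B2m probes passed below 0, 1 passed above 0 and 28 did not pass, against 26.0% of 38975 rows called in either direction and 3911 of them below 0. These probes are annotated to the same gene and are not independent tests. Across the 75 probes, Pearson's r was 0.557 between arrays 1 and 2, 0.797 between arrays 1 and 3 and 0.547 between arrays 2 and 3, as a description of points that share their probes. The probes that passed below 0 averaged -0.89 and the others -0.18. Probe sequences and positions along the transcript were not analysed here. Whether the rows hold different oligos or altered control oligos could not be told. What the spread between them and their average reflect was thus not tested.

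**Figure D2:**
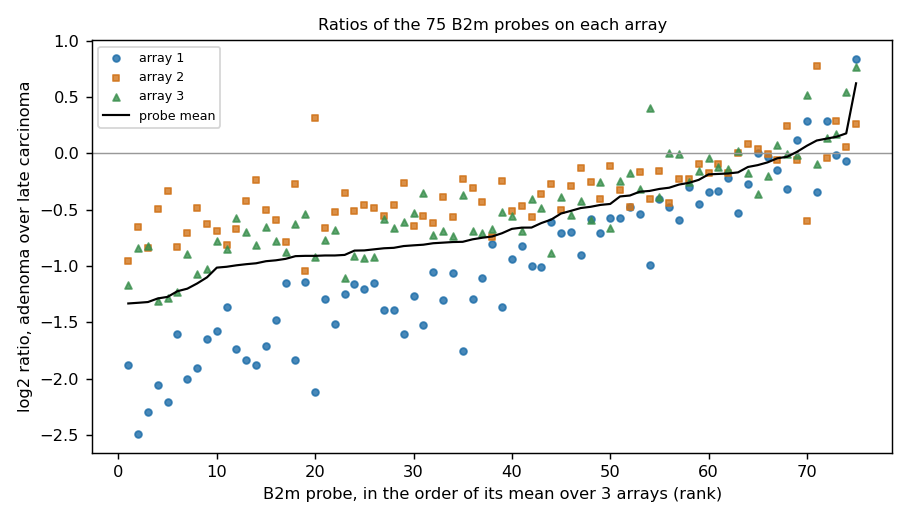
Each column is 1 of the 75 B2m probes, ordered by its mean, with the log2 ratio of adenoma over late carcinoma on the vertical axis. Points are the 3 arrays and the line is the probe mean. Most points lie below 0, array 1 (blue) spreads farthest, and the probe means run from -1.33 to 0.62.

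A comparable spread was seen in other genes that the array covers with many probes. Of 19 genes with at least 10 probes, B2m had the second largest SD between probe means, 0.43. The largest belonged to the cytoskeletal actin gene Actb, 0.73 over 32 probes, whose probe means ran from -1.52 to 0.90 with a gene mean of 0.089. The smallest belonged to the talin gene Tln1, 0.18 over 57 probes. Gapdh, the glycolytic enzyme gene, resembled B2m with a gene mean of -0.70, an SD of 0.40 over 30 probes and 29 of them below 0. Ywhaz, a 14-3-3 adaptor gene, lay on the other side, with a gene mean of 0.52 over 77 probes. B2m was below 0 in 90.7% of its probes, Hprt, a purine salvage gene, in 23.1% of 78 and Tbp, the TATA-binding protein gene, in 73.4% of 79. The share was higher than that of B2m in Gapdh (96.7% of 30), Tln1 (91.2% of 57) and Eef2 (90.9% of 22). These comparisons carry no test.

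**Figure D3:**
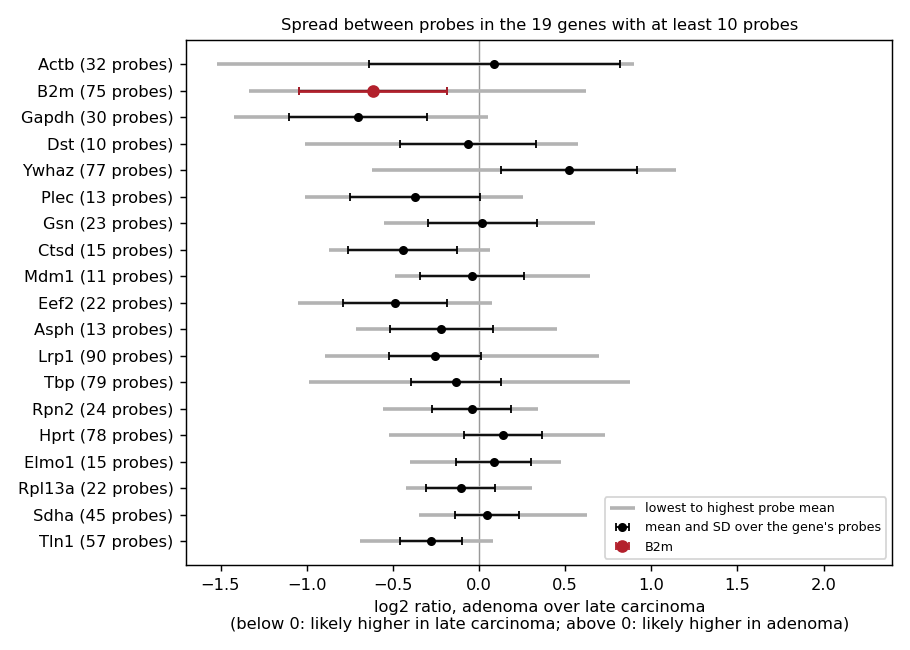
Rows are the 19 genes with at least 10 probes, ordered by the SD between their probe means; the horizontal axis is the log2 ratio of adenoma over late carcinoma. Points and bars are the mean and SD over probes, and grey lines span the lowest to the highest probe mean. B2m (red) has the second widest spread and, with Gapdh, the lowest mean.

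The promoters of the genes that passed, B2m, Tap1 and H2-Aa, and of the class I heavy chain genes, which did not, are shown. B2m and the heavy chains form 1 molecule. Whether their ratios differ, and whether promoters have a part in any ratio, was not tested. Each sequence covers 250 bases before to 50 bases after the RefSeq transcript start in GRCm38.p6, read 5′ to 3′ on the gene's strand. RefSeq promoters were matched for 6 of the 10 genes, and for H2-K1 the first of its listed starts is printed. Capitals mark matches to 4 motifs searched on both strands: the CCAAT box (CCAAT), an interferon-stimulated element core (GAAANNGAA), the NF-kappaB site of class I enhancer A (GGGATTCCC) and a class II X box core (CTNGCAAC). The X box letters were set after these windows had been read.
B2m, chr2:122147437-122147736, plus strand: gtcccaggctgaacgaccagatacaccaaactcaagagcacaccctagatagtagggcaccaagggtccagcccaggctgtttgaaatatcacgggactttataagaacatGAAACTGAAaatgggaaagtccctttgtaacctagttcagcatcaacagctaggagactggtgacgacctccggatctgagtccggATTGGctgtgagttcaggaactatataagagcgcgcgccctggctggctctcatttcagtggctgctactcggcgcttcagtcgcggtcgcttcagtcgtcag
Tap1, chr17:34187306-34187605, plus strand: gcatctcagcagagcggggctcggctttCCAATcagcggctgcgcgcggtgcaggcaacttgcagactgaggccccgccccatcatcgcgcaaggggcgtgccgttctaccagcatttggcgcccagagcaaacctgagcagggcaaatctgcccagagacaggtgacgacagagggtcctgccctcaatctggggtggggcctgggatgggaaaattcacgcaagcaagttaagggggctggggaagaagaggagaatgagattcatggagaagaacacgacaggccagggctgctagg
H2-K1, chr17:34000298-34000597, minus strand: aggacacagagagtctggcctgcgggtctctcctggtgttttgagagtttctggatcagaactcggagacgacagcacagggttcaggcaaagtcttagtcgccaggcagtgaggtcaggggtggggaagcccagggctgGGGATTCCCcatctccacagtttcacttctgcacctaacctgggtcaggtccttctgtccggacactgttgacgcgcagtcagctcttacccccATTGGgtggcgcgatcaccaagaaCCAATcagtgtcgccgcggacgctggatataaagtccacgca
H2-D1, chr17:35262844-35263143, plus strand: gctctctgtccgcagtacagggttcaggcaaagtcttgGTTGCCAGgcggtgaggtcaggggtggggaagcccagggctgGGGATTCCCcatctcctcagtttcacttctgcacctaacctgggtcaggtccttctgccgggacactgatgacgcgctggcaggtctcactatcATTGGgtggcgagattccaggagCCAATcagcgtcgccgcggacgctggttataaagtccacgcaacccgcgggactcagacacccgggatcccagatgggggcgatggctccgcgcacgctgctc
H2-Aa, chr17:34287774-34288073, minus strand: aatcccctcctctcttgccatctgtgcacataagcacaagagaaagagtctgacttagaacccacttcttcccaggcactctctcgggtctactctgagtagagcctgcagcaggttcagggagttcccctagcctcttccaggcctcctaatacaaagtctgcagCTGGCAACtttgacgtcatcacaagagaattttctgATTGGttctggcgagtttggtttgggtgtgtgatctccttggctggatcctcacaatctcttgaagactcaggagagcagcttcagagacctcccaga

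Each of the 5 printed windows holds a CCAAT box, as do 37.4% of 32851 promoters of the same length. B2m holds the interferon-stimulated element core as GAAACTGAA at bases -139 to -131 from the start, a motif found in 8.56% of promoters. Only these core letters were searched, so no window can be said to lack an interferon-stimulated element. The letters tttcacttc, held by both H2-K1 and H2-D1, lie outside the searched core. H2-K1 and H2-D1 hold the enhancer A letters GGGATTCCC at -110 to -102 and -170 to -162, found in 0.353% of promoters, and the other printed windows do not. From another listed start of H2-K1 the same letters lie at -124 to -116, so these positions depend on the annotated start. H2-Aa holds the X box core as CTGGCAAC at -84 to -77, ahead of its CCAAT box at -48 to -44, and H2-D1 holds the same core on the other strand as GTTGCCAG at -212 to -205. The X box core is found in 3.42% of promoters. Its letters were set after these windows had been read, so its matches here are not an independent finding. H2-K1 and H2-D1 were alike over 89.5% of 239 aligned bases. Matches describe letters only.

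The peptide transporter genes differed in call. Tap1 had -0.498, -1.24 and -0.298 on arrays 1, 2 and 3, all on the late carcinoma side and with array 2 apart from the others. Its mean log2 ratio was -0.68 ± 0.49 (SD, n = 3), a 1.60-fold ratio (limma adjusted p = 0.0410). Without array 2 the mean was -0.40 and the call was lost (adjusted p = 0.0911). Tap2, the other subunit of the same transporter, had -0.009, -0.432 and 0.161, on both sides of 0. Its mean was -0.093 ± 0.31, with a 95% interval of -0.43 to 0.24 and an adjusted p of 0.648, and it turned its sign with array weights (0.0018) and without array 2 (0.076). The difference between Tap1 and Tap2 was not tested.

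The class I heavy chain genes did not pass in either direction. H2-K1 had -0.047, 0.439 and 0.144, with a mean of 0.18 ± 0.24 and a 95% interval of -0.12 to 0.48 (limma adjusted p = 0.331). H2-D1 had 0.144, -0.443 and -0.352, with a mean of -0.22 ± 0.32 and an interval of -0.56 to 0.12 (adjusted p = 0.293). On each of the 3 arrays these genes lay on opposite sides of 0 from each other. Heavy chain genes are closely related paralogues, so a probe may also read another family member, which was not tested, and their values are uncertain. With centring on receptor genes, described further on, H2-K1 turned its sign (-0.17) and H2-D1 passed below 0 (-0.57, adjusted p = 0.0104). Whether light and heavy chains differ was not tested.

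Among class II genes, the alpha chain gene H2-Aa passed and the other 3 measured genes did not. H2-Aa had 0.936, 0.472 and 0.940 on arrays 1, 2 and 3, all on the adenoma side. Its mean log2 ratio was 0.78 ± 0.27 (SD, n = 3), a 1.72-fold ratio (limma adjusted p = 0.0127). H2-Ab1, which encodes the beta chain that pairs with it, had -0.201, 0.037 and -0.050, with a mean of -0.071 ± 0.12 and a 95% interval of -0.33 to 0.18 (adjusted p = 0.649). That interval and the interval of H2-Aa, 0.47 to 1.10, do not overlap, though the difference itself was not tested. Each gene was read by 1 probe. The intervals hold the spread between arrays and not the spread between probes of a gene, which was wide for B2m.

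The invariant chain gene Cd74 varied most between arrays, at -1.51, -0.733 and 0.395. Arrays 1 and 2 lay on the late carcinoma side and array 3 on the adenoma side, so its mean of -0.62 ± 0.96 did not pass (limma adjusted p = 0.199) although it was as far from 0 as that of B2m. Without array 3 its mean was -1.12 and without array 1 it was -0.17. The transactivator gene Ciita had 0.149, 0.501 and 0.061, all on the adenoma side, with a mean of 0.24 ± 0.23 and an interval of -0.059 to 0.53 (adjusted p = 0.201). Under receptor centring Ciita turned its sign (-0.11). The measured class II genes thus lay on both sides of 0. By order of the mean, Tap1, Cd74, B2m, H2-D1, Tap2, H2-Ab1, H2-K1, Ciita and H2-Aa followed each other from lowest to highest. Neighbours in this order differed by less than the larger SD of the pair, except B2m and H2-D1 (0.40), H2-Ab1 and H2-K1 (0.25) and Ciita and H2-Aa (0.55).

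The calls rest on array 3: without it, 0 of 9 genes passed by limma, against 0.00664% of named genes, while 4 had an unadjusted p under 0.05 (Cd74 0.0032, Tap1 0.00887, H2-Aa 0.00961 and B2m 0.0187). Olfactory and vomeronasal receptor genes, whose products serve smell and pheromone sensing, were set beside the 9 genes. Of 977 such genes, 17.2% had a mean at least as high as H2-Aa, 0.409% one as low as B2m and 0.102% one as low as Tap1. By limma (adjusted p under 0.05), 424 receptor genes were called on the adenoma side and 26 on the late carcinoma side. Receptor calls thus came to 46.1%, beside 25.2% for named genes, and the median receptor mean was 0.342. A call on the adenoma side was therefore common among receptor genes. What the ratios of these receptor genes reflect was not tested. Centring each array on these genes took 0.405, 0.276 and 0.363 off arrays 1, 2 and 3, so any mean between 0 and 0.348 given here changes sign under it. B2m then had -0.96, Tap1 -1.03 and H2-Aa 0.43, and 7 of 9 genes passed, 1 above 0 and 6 below 0, against 62.6% of named genes called in either direction and 55.4% called below 0 (limma adjusted p under 0.05).

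**Figure D4:**
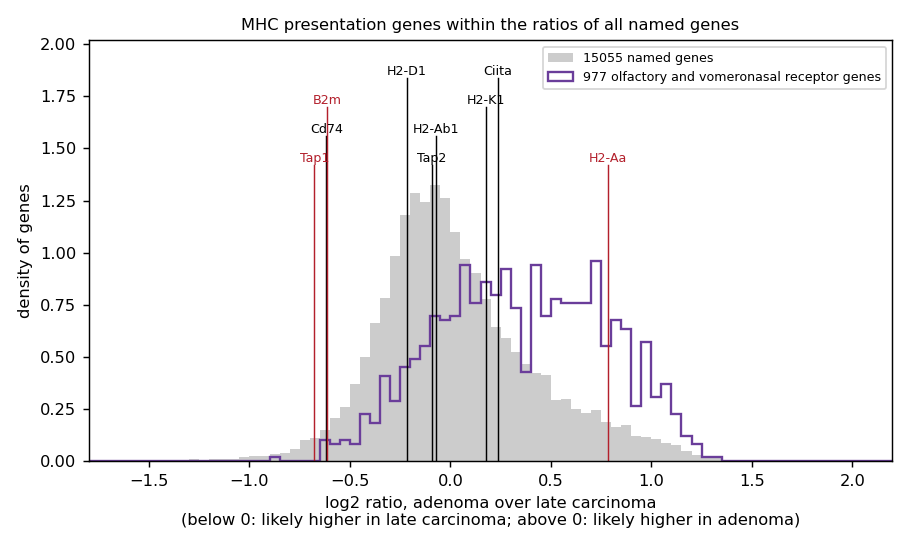
The grey histogram shows the mean log2 ratio of adenoma over late carcinoma for 15055 named genes and the purple outline the 977 receptor genes, each as a density; 4 genes lie beyond the drawn range. Vertical lines mark the 9 genes, in red where they passed. H2-Aa lies well within the receptor genes, and B2m, Cd74 and Tap1 near their low end.

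Other genes of the pathway were read from 5 lists of 71 entries, of which 58 were measured; 8 passed above 0 and 8 below 0, or 27.6%, near the 25.2% of named genes. Without array 3, 0 of the 58 passed by limma, and of all marker genes below Fabp4 alone did. The non-classical and class I-like chains leaned to the late carcinoma side. Of 14 measured, 0 passed above 0 and 5 below 0, or 35.7%, beside 25.2% of named genes. Their means lay below 0 for 13 genes, against 53.4% of all named genes. Their list medians were -0.427, -0.206 and -0.348 on arrays 1, 2 and 3. H2-Q6 had -1.45, -0.528 and -0.742, with a mean of -0.91 ± 0.48 (adjusted p = 0.0178), and H2-Q7, which encodes a Qa-2 molecule, -1.44, -0.401 and -0.858, with a mean of -0.90 ± 0.52. For both genes array 1 lay lowest and array 2 highest, the order also seen for B2m. Genes outside class I, such as Lgmn (-1.29, -0.586 and -0.678) and Krt19 (-1.57, -0.933 and -0.982), showed this order too. Its share among all named genes was not counted.

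H2-Q1 had a mean of -0.69 ± 0.13, H2-Q2 -0.49 ± 0.12 and Mr1, which presents vitamin B metabolites to mucosal-associated T cells, -0.52 ± 0.17, all with the same sign on 3 arrays (limma adjusted p = 0.0119 to 0.0214). The rows of Mr1 disagreed, at 0.003 and -1.05, so its call rests on 1 of them. The lower of the 2 rows of H2-Q2 had -0.75, so the other lay nearer to 0 than the gene mean. H2-T23, the Qa-1 gene that natural killer receptors read, had -0.41 ± 0.22 and H2-Bl -0.27 ± 0.055, neither of which passed (adjusted p = 0.0513 and 0.0927). H2-T23 passed without array 2 (-0.53, adjusted p = 0.0284), and both passed with array weights (adjusted p = 0.0156 and 0.0341). H2-Q8, outside the list and chosen after its value was seen, had -0.86 ± 0.12 (adjusted p = 0.0117). H2-Q genes are near-copies of each other and their probes may share targets, so these are not separate observations. H2-M3, which presents formylated peptides, was the list's 1 gene with a mean above 0, at 0.21 ± 0.11, and did not pass (adjusted p = 0.181).

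Peptide loading and assembly genes of class I held 1 of 11 past above 0 and 1 below 0. These calls make 18.2%, beside 25.2% of named genes. Of the 11 means, 10 lay below 0, beside 53.4% of the means of all named genes. Psmb10, an immunoproteasome subunit gene, had -0.242, -0.817 and -0.687, with a mean of -0.58 ± 0.30 (adjusted p = 0.0273), and lost its call without array 2 (adjusted p = 0.0715). The lower of the 2 rows of Psmb10 had -0.94, so the other lay nearer to 0 than the gene mean. The chaperone gene Canx, which holds new heavy chains, had 1.22, 0.566 and 0.930 and passed above 0 with 0.91 ± 0.33. The proteasome activator genes Psme2 (-0.46 ± 0.39) and Psme1 (-0.36 ± 0.52) did not pass (adjusted p = 0.0772 and 0.208). Without array 1 they lay at -0.24 and -0.081, and without array 2 Psme1 had -0.59 and passed (adjusted p = 0.0432). The list's median was -0.17.

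Class II loading and accessory genes went both ways, with 2 of 10 past above 0 and 1 below 0 and a median of -0.060. These calls make 30%, beside 25.2% of named genes. Ctss, the cathepsin that trims the invariant chain in antigen-presenting cells, had 1.14, 0.674 and 1.10 (mean 0.97 ± 0.26, limma adjusted p = 0.0117). Ctsl, a cathepsin with that role in thymic epithelium, had a mean of 0.79 ± 0.36, and both lay on the adenoma side on every array. Lgmn, an asparagine endopeptidase of the same endosomes, had -1.29, -0.586 and -0.678 and passed on the late carcinoma side with -0.85 ± 0.38 (adjusted p = 0.0148). The peptide exchange genes H2-DMb1 (0.29 ± 0.14) and H2-DMb2 (-0.30 ± 0.0093) lay on opposite sides of 0 and did not pass (adjusted p = 0.0916 and 0.0712), though H2-DMb2 did with array weights (adjusted p = 0.0324).

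Transcription and interferon gamma genes held 3 of 16 past above 0 and 0 below 0, with a median of 0.076. These calls make 18.8%, beside 25.2% of named genes. Irf2, a relative of Irf1 that can oppose it, had 1.77, 0.642 and 1.39 (mean 1.27 ± 0.57, adjusted p = 0.0123). The cytokine receptor kinase gene Jak1 had a mean of 0.86 ± 0.38, and Nfyc, a subunit of the factor that binds CCAAT boxes, 0.45 ± 0.25. Nfyc lost its call with receptor centring (0.10, adjusted p = 0.484) and without array 1 (adjusted p = 0.107). Among the other measured inputs, the cytokine gene Ifng had -0.25 ± 0.088, Irf1, which interferon gamma induces, -0.16 ± 0.24 and Rfx5, which binds the X box, 0.21 ± 0.18, and none of these 3 passed (adjusted p = 0.126, 0.392 and 0.226). Socs1 (0.32 ± 0.30) and Ifngr2 (0.30 ± 0.13) did not pass either (adjusted p = 0.135 and 0.0822). Socs1 passed without array 1 (0.47, adjusted p = 0.0392) and lay at 0.17 without array 3, and both passed with array weights (adjusted p = 0.0214 and 0.0320).

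Co-stimulation genes held 2 of 7 past above 0 and 1 below 0, or 42.9%, beside 25.2% of named genes. Cd86, a ligand of CD28 on antigen-presenting cells, had 0.441, 0.672 and 0.492 (mean 0.54 ± 0.12, adjusted p = 0.0173), and the PD-1 ligand gene Pdcd1lg2 had a mean of 0.38 ± 0.082. Icosl, the ICOS ligand gene, had -0.466, -0.463 and -0.837 and passed on the late carcinoma side with -0.59 ± 0.22. Cd86 and Pdcd1lg2 no longer passed with receptor centring (0.19 and 0.028, adjusted p = 0.201 and 0.837), and Pdcd1lg2 also lost its call without array 2 (adjusted p = 0.138). Cd40 (-0.22 ± 0.17) and Cd80 (-0.16 ± 0.19) did not pass (adjusted p = 0.202 and 0.342). Cd40 passed by its first row (-0.46, limma adjusted p = 0.0244) but not by the middle of its 3 rows (-0.18, adjusted p = 0.353). Without array 1 Cd40 lay at -0.12, and Cd80 lay at -0.066 without array 2 and -0.25 without array 3.

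**Figure D5:**
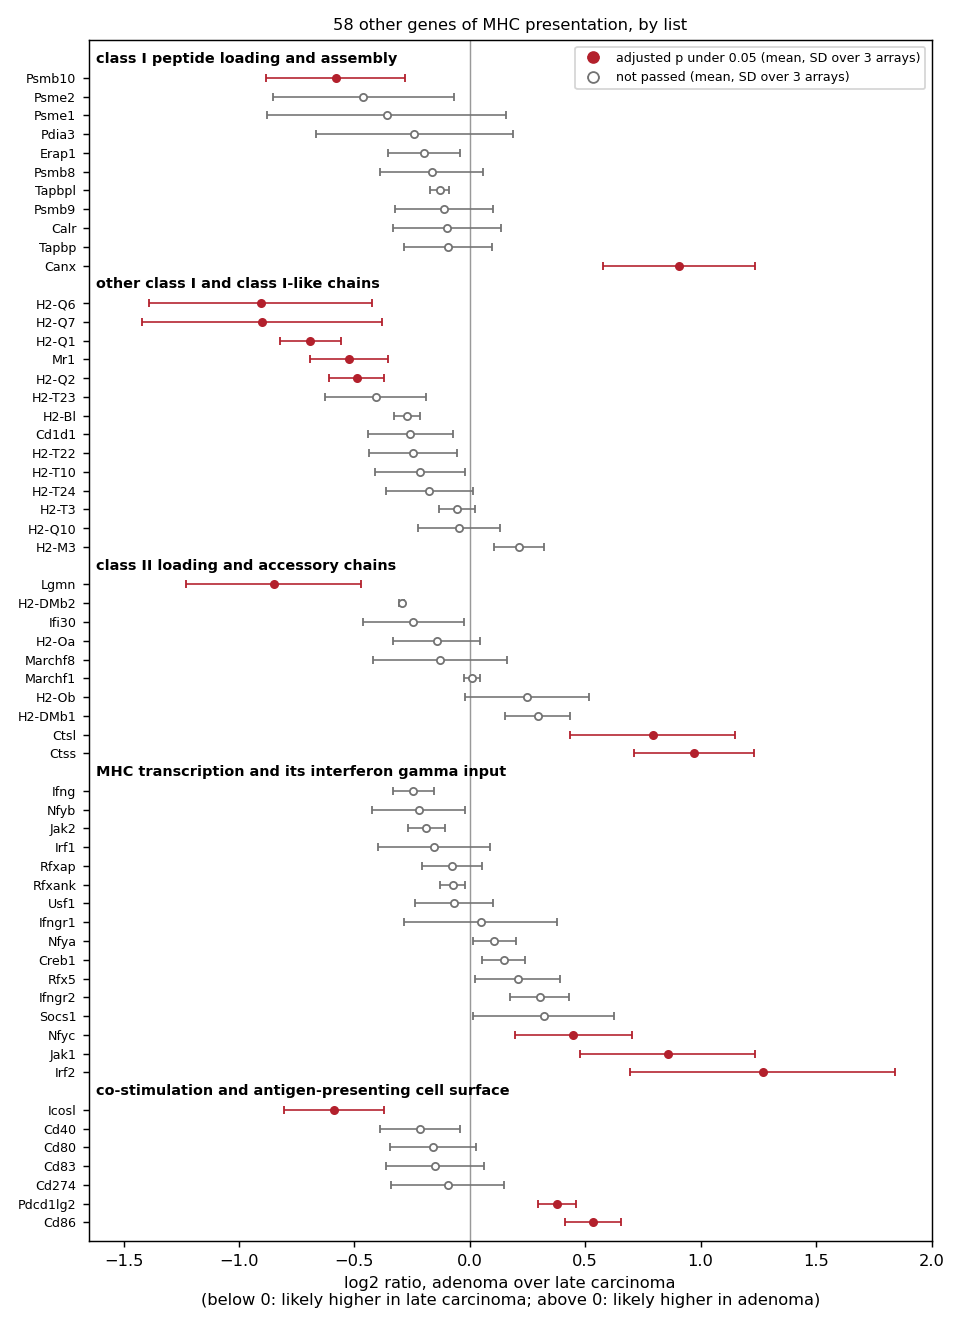
Each row is 1 of 58 pathway genes, grouped by list, with the mean log2 ratio of adenoma over late carcinoma and its SD over 3 arrays. Red points passed an adjusted p of 0.05. Of the class I-like chains, 13 of 14 lie below 0, whereas the transcription and interferon gamma list reaches 1.27 at Irf2.

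Of 44 measured markers of cells that could carry these transcripts, 9 passed above 0 and 3 below 0, or 27.3%, beside 16.0%, 9.19% and 25.2% of named genes, and their part in the ratios of class II genes was not tested. Of 6 B cell genes, 0 passed by limma and 1 had an unadjusted p under 0.05, while 5 of the 6 means lay below 0, against 53.4% of named genes. The lowest was Ms4a1 (-0.38 ± 0.40), which passed without array 2 (-0.59, adjusted p = 0.0252), and the 1 above 0 was Cd79a (0.28 ± 0.13), which passed with array weights (adjusted p = 0.0346). Dendritic cell genes held 1 of 9 past above 0 and 2 below 0 and ran from -0.71 to 0.49. Xcr1 (-0.71 ± 0.38) and Batf3 (-0.52 ± 0.19), known from cross-presenting dendritic cells, passed on the late carcinoma side, and Cd209a (0.49 ± 0.20) on the adenoma side. Clec9a, known from the same cells as Xcr1 and named after its value was seen, had 0.22 ± 0.26 and did not pass (adjusted p = 0.243). Cd209a did not pass with receptor centring (0.14) or without array 1 (0.38, adjusted p = 0.0615). Siglech (0.30 ± 0.17) and Itgax (0.25 ± 0.13) did not pass, but both did with array weights (adjusted p = 0.0274 and 0.0431). The rows of Siglech disagreed, as the first passed (0.54, limma adjusted p = 0.0174) and the other did not (0.055, adjusted p = 0.788).

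The counts of the next lists stand beside 25.2% of named genes called, 16.0% above 0 and 9.19% below 0. Macrophage genes held 1 of 6 past above 0 and 0 below 0 and ran from -0.48 to 0.50. Adgre1, the F4/80 gene, had 0.50 ± 0.23 (adjusted p = 0.0300), but its rows had -0.092 and 1.09, and the call was lost with receptor centring (0.15) and without array 1 (0.39, adjusted p = 0.0635). C1qb (-0.48 ± 0.46) did not pass, ran to -0.22 without array 1, and passed without array 2 (-0.67, adjusted p = 0.0238). Fcgr1 (-0.32 ± 0.10) did not pass either but did with array weights (adjusted p = 0.0256). T cell genes held 1 of 5 past above 0 and 0 below 0, with Cd3g at 0.75 ± 0.11, Cd3e at -0.28 ± 0.040 and Cd3d at -0.23 ± 0.47 on both sides of 0. Cd3d passed without array 1 (-0.49, adjusted p = 0.0387) and lay at -0.018 without array 3, and Cd3e passed with array weights (adjusted p = 0.0332). Epithelial genes held 2 of 10 above 0 and 1 below 0: Cdh1 (0.63 ± 0.29), Cldn3 (0.36 ± 0.091) and the keratin gene Krt19 (-1.16 ± 0.35). Cldn3 lost its call without any 1 array, and Cdh1 and Cldn3 with receptor centring (0.29 and 0.010). Krt5 (-0.28 ± 0.35) and Cldn7 (-0.29 ± 0.20) did not pass, though Krt5 did without array 2 (-0.47, adjusted p = 0.0475) and lay at -0.15 without array 3, and Cldn7 lay at -0.19 without array 1. Fat cell genes held 4 of 8 above 0 and 0 below 0, led by Fabp4 (3.49 ± 0.60) and Car3 (1.56 ± 0.53), with Lep (0.62 ± 0.11) and Adipoq (0.53 ± 0.30) also past and Cidec (-0.28 ± 0.19) and Lipe (-0.28 ± 0.13) not. The part of fat cells in the ratios was not tested, and Lep and Adipoq did not pass with receptor centring (0.27 and 0.18). Adipoq also lost its call without array 1 (0.35, adjusted p = 0.0703), and Car3 by the lower of its rows (0.86, adjusted p = 0.0551). Cidec passed below 0 with array weights (adjusted p = 0.0305).

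Among 15054 other named genes, those whose 3 array ratios lay nearest to B2m by Euclidean distance were Stac2 (0.0524), Irx1 (0.0575) and Cox6b1 (0.0626). Nearest to H2-Aa were Rbm34 (0.0282), Klrc1 (0.0392) and 4930433I11Rik (0.0515). With 3 arrays this is a description of distance only.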

How the data were processed

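The deposited value table gives 1 log2 ratio per row and array for 38976 rows on 3 arrays; log base and numerator were read from the values and the labels' dyes. What the authors used as scanner, background correction and normalization is not stated in the labels or files. Gene names came from the platform annotation (22973 with 1 gene symbol, 0 with several, 16003 with none; all 22973 matched a GRCm38.p6 gene identifier). The rows of each gene were averaged within an array, and 31058 units measured on 3 arrays were fitted with limma 3.58.1 in R 4.3.3 (intercept, eBayes, two-sided, Benjamini-Hochberg over all units, prior degrees of freedom 4.60). The fit was tested on simulated data.

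All 9 measured members are named. From each list, genes past the threshold and up to 2 others with the largest absolute mean were named. Rfx5, Ifng, Irf1, H2-M3, Clec9a, Hprt, Gapdh, Tbp, Ywhaz and Eef2 were added after their values were seen. Members and lists were chosen with earlier results of these data known. Alternatives were centring, scaling, row summaries, variance models, array weights, thresholds and leaving out each array; centring within runs of 812 rows was added after the data were seen. RefSeq promoters came from GRCm38.p6. Figures used matplotlib 3.10.9.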

Additional observations from a re-analysis of the deposited data

How the results depend on the processing

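Over 117 alternative values of the 9 genes, 105 kept direction and side of the threshold. Part of this was fixed in advance, because the row summaries return the same mean for the 8 genes with 1 probe. The robust variance model and named genes alone also leave every mean as it was and can move only the p-value. Causes below were not tested unless given. Without array 3, B2m (-0.68, adjusted p = 0.134), Tap1 (-0.87, 0.115) and H2-Aa (0.70, 0.117) no longer passed. Leaving out each array, B2m ran from -0.74 to -0.42, Tap1 from -0.87 to -0.40, H2-Aa from 0.70 to 0.94 and Tap2 from -0.22 to 0.076, and the counts past the threshold from 0 to 3 of 9 members, 0 to 16 pathway genes, 1 to 14 marker genes, 0 to 49 B2m probes and 1 to 7324 of 31058 units (7758 at an unadjusted p under 0.05 without array 3); against all arrays these were 3, 16, 12, 46 and 7809. Receptor centring, which takes a constant off each array, gave 7 members (1 above 0, 6 below), 46 pathway genes (5 above, 41 below), 26 marker genes (3 above, 23 below) and 19100 units (2289 above, 16811 below), against 4948 above and 2861 below. It brought Tap2 (-0.44), H2-D1 (-0.57), H2-Ab1 (-0.42) and Cd74 (-0.97) past the threshold below 0. It turned H2-K1 (-0.17), Ciita (-0.11), H2-DMb1 (-0.053), Socs1 (-0.028), Ifngr2 (-0.045), Cd79a (-0.065), Siglech (-0.052) and Itgax (-0.095) below 0, none past the threshold. Array weights, which weight array 3 most (2.27, against 0.537 and 0.820), gave 19 marker genes and 12036 units and Tap2 a mean of 0.0018. Named genes alone, with fewer units tested, gave 4274 calls. By rows, besides the calls given with each gene, Mr1 had 0.003 (first row), Ifngr2 -0.16 (first row, the lower of its rows) and Adgre1 -0.092 (lower row). Run centring changed no call of the 9 genes, and run medians lay between -0.074 and 0.048. Each ratio already sets late carcinoma against adenoma on 1 array, so the test is paired within arrays and no replicate block was added.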
